A study of Mus musculus with 12 samples.

Results

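Immature late granulocytes were described here in single-cell RNA sequencing data of c-Kit+ bone marrow cells, in which a UMI (unique molecular identifier) counts 1 captured RNA molecule. They are cells whose S100a8, S100a9, Camp and Ngp UMIs together made up at least 1000 of every 10000 UMIs (the late-gene sum) and whose Retnlg, Ifitm6 and Ly6g UMIs together made up fewer than 10 of every 10000 (the mature-gene sum). By this rule 2885 of 32701 cells were members. The values that chose them are those of 7 genes, which are given below as a description and were not tested.

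To follow NRas activation and Ezh2 loss, alone and together, over leukemia development, C57BL/6 mice were injected with pIpC at 8 to 12 weeks of age by the sample labels (the study's text gives a younger age), and marrow was taken at T1 (2 weeks later), T2 (2 months later) and T3 (4 months later). WT mice were negative for the pIpC-inducible recombinase Mx1-Cre. The mutants carried Mx1-Cre with Ezh2 f/f (E2-KO), with NRas G12D +/− (G12D), or with both (G12D/E2-KO). There was 1 library for each genotype and time point, 12 in all, so the 3 time points served as the replicates of a genotype and the recombinase cannot be told apart from the mutations in any comparison with WT. Mx1-Cre is induced through the interferon response and acts in blood cells and in other tissues.

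The tables held 35597 cells. Of 5648 cells deposited for G12D T1, 2896 (51.3%) matched a G12D/E2-KO T1 cell with a cosine above 0.9, and these were counted only in G12D/E2-KO T1. That library held 3044 cells, and how many of them had a match was not counted. The shared cells were assigned to the double mutant by the rule, and their genotype of origin was not tested. The lowest cosine of a matched cell was 0.909 and the highest of a cell not matched was 0.894, and none of the 65 other pairs of libraries held a matched cell. The fits were therefore repeated without both of these T1 libraries, an alternative added after the data were seen. Of 109 named gene results 39 then no longer passed. These were 12 of 22 for G12D/E2-KO against WT, 6 of 17 for G12D/E2-KO against G12D, 18 of 25 for the G12D/E2-KO difference between immature and mature cells, 2 of 17 for E2-KO against WT and 1 of 21 for its difference between states. With fewer libraries this fit also has fewer degrees of freedom. The sex of the animals was not matched at T3. Xist, the RNA of the inactive X chromosome, had 1218, 904 and 791 UMIs in the T3 members of WT, E2-KO and G12D and 0 to 2 in all 9 other libraries, G12D/E2-KO T3 included. The Y-linked gene Eif2s3y had 22 UMIs in G12D/E2-KO T3 and 0 in the 3 other T3 libraries. The results for the double mutant are therefore also given without G12D/E2-KO T3, after which the libraries of each time point share these sex markers.

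A neutrophil is built in the marrow in steps. Promyelocytes make the primary granule proteins (myeloperoxidase and the serine proteases Elane, Prtn3 and Ctsg), myelocytes and metamyelocytes then make the secondary granule proteins (lactoferrin, lipocalin 2, cathelicidin, neutrophilic granule protein), and band cells and segmented neutrophils add gelatinases and the surface receptors of blood neutrophils. The transcription factor C/EBPε, encoded by Cebpe, drives the secondary granule genes. Ezh2 is the methyltransferase of Polycomb repressive complex 2, which marks silent genes on histone H3 lysine 27, and NRas is a small GTPase that signals to the ERK pathway.

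The WT members matched the label. In CPM (UMIs of a gene per M UMIs of the members of a library, where M is 10 to the power of 6), Fcnb, which encodes ficolin B, stood at 1270 ± 170 CPM (SD, n = 3) in WT members. It stood at 134 ± 23.7 in WT early granulocytes (late-gene sum under 1000 and at least 100 of every 10000 UMIs from Mpo, Elane, Prtn3 and Ctsg) and at 558 ± 134 in WT mature late granulocytes (mature-gene sum of 10 or more). Chil3, which encodes a chitinase-like protein, stood at 4053 ± 653 CPM in WT members and at 126 ± 16.3 in early granulocytes, and Ltf, which encodes lactoferrin, at 2541 ± 355 and 96.5 ± 18.5. Mature WT cells had 4963 ± 186 CPM of Chil3 and 4823 ± 478 of Ltf. All 3 markers outside the rule were thus present in WT members, and Fcnb was higher there than in the cells before and after them. In G12D/E2-KO T3 members Fcnb, Chil3 and Ltf had 605, 5843 and 286 of 583726 UMIs. In WT T3 members they had 1501, 6534 and 4041 of 1385650. Ltf was thus lower and Chil3 higher per UMI in that double mutant library. Ngp and Camp, markers that belong to the rule, stood at 44876 and 63928 CPM in WT members. Il1b, a cytokine gene of mature neutrophils, was between 0 and 2.36 CPM in every library's members. Kit was at 19.7 ± 3.10 CPM in WT members against 63.0 ± 7.4 in all WT cells with a late-gene sum under 1000, early granulocytes included.

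Near the limits of the rule, 104 members had a late-gene sum of 1000 to 1100 and 102 cells with a low mature-gene sum lay just outside at 900 to 1000. Another 219 members had a mature-gene sum of 9 to 10, and 217 cells lay just outside at 10 to 11. The rule therefore cuts a range at both ends and does not separate distinct groups of cells. The members' median depth ran from 3852 UMIs per cell (E2-KO at T3) to 7709 (WT at T2), and the sums over the members of a library ran from 583726 to 2096493 UMIs.

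Within the WT members, primary granule transcripts gave way to secondary granule transcripts as the late-gene sum rose. Elane, neutrophil elastase, stood at 9817 ± 4499 CPM in members with a sum of 1000 to 1500, at 9465 ± 2870 at 1500 to 2000, at 7580 ± 1329 at 2000 to 2500 and at 1315 ± 492 above 2500. Mpo, myeloperoxidase, went from 2596 ± 1190 through 1934 ± 846 and 1486 ± 184 to 154 ± 46.6 CPM over the same steps. Both transcripts were thus near the early granulocyte level (9716 ± 406 CPM for Elane and 3443 ± 235 for Mpo) in the members with the lowest sums and low in those with the highest. Lcn2, lipocalin 2, ran the other way, from 1278 ± 528 CPM through 1411 ± 315 and 2151 ± 463 to 6638 ± 856, and Ltf went from 673 ± 357 to 3279 ± 286 CPM between the first and the last step. Fcnb followed neither course, with 855 ± 193, 1277 ± 335, 1623 ± 106 and 1316 ± 232 CPM, so that its highest mean lay at 2000 to 2500. Because the steps are cut by the rule's own genes, these courses are a description and carry no test. Some steps held few cells. The step of 2000 to 2500 held 5.52% of the 181 WT T1 members, and that of 1500 to 2000 held 4.85% of the 227 WT T2 members.

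**Figure D1:**
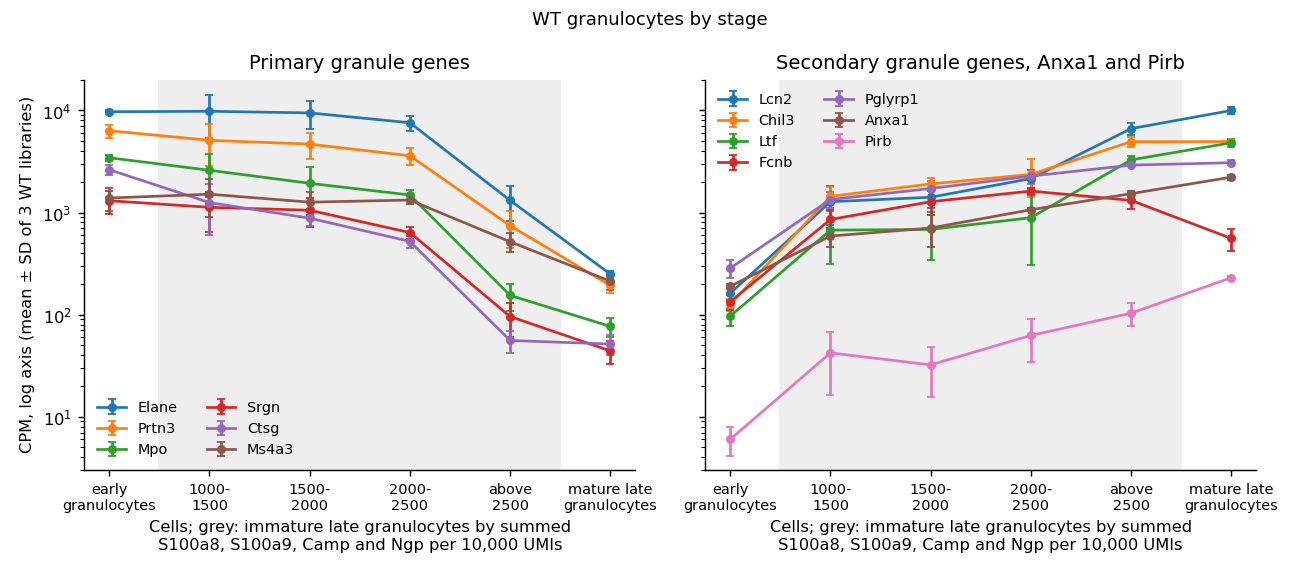
Mean CPM (vertical axis, log scale) of primary granule genes (left) and of secondary granule genes, Anxa1 and Pirb (right) in WT early granulocytes, in WT immature late granulocytes split by late-gene sum per 10000 UMIs (grey ground) and in WT mature late granulocytes. Points are means and bars SDs of 3 libraries. Elane falls from 9817 CPM in the first grey step to 1315 in the last, while Lcn2 goes from 1278 to 6638.

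The shares of immature late granulocytes among all cells overlapped between the 4 genotypes. Their share among late granulocytes (immature and mature together) did not overlap between WT and E2-KO by the rule's own genes. It did by a choice from other genes, which agreed little with the rule. Immature late granulocytes were 7.70%, 7.98% and 9.08% of all WT cells at T1, T2 and T3, and 8.79%, 9.07% and 8.00% of all E2-KO cells. The G12D libraries held 9.52%, 13.8% and 5.49%, and the G12D/E2-KO libraries 8.61%, 11.9% and 4.89%. Both genotypes with NRas G12D had their highest share at T2 and their lowest at T3, and their ranges enclosed those of WT and E2-KO. By the exact sign-flip test over same-time pairs, with Benjamini-Hochberg adjustment over 6 tests, Ezh2 deletion changed the log2 share of all cells by −0.06 (SD 0.19, 6 pairs, exact p = 0.5625, adjusted p = 0.675) and NRas G12D by 0.00 (SD 0.62, 6 pairs, exact p = 1). The direction for Ezh2 deletion depended on the gate. With a mature-gene limit of 20 in place of 10 the change was −0.47, with a lower share in 6 of 6 pairs (exact p = 0.03125, the smallest possible, adjusted p = 0.1875). With a limit of 5 it was 0.36, with a higher share in 5 of 6 pairs (exact p = 0.0625, adjusted p = 0.1875).

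Among late granulocytes, the immature share was 23.0%, 23.1% and 22.8% in WT and 47.8%, 57.8% and 43.2% in E2-KO. The lowest E2-KO library thus lay above the highest WT library. G12D had 25.2%, 35.6% and 13.6% and G12D/E2-KO had 19.7%, 42.2% and 28.4%, and these ranges overlapped each other and that of WT. Ezh2 deletion changed the log2 share by 0.71 (SD 0.63), with a higher share in 5 of 6 pairs, and did not pass the exact sign-flip test (exact p = 0.09375, adjusted p = 0.5625, smallest possible exact p = 0.03125). Its size depended on the gate, with 1.13 for a mature-gene limit of 5 (exact p = 0.0625) and 0.29 for a limit of 20 (exact p = 0.09375), each higher in 5 of 6 pairs. NRas G12D changed it by −0.39 (SD 0.67, exact p = 0.28125) and the interaction was −0.78 (SD 0.81, 3 pairs, exact p = 0.5, where 0.25 is the smallest possible). Mature late granulocytes were 8.92% ± 2.04 of all cells (SD, n = 3) in E2-KO against 27.7% ± 2.70 in WT, 21.2% ± 12.1 in the double mutant and 29.3% ± 5.02 in G12D. The gate rests on 7 genes, so a change of these genes moves cells across it. When mature cells were chosen by 11 mature neutrophil genes outside the rule, an alternative added after the data were seen, the change with Ezh2 deletion was 0.36 and higher in 6 of 6 pairs (exact p = 0.03125, the smallest possible, adjusted p = 0.09375). By that choice 27.2% of the members were immature, within the 18.0% to 40.9% of all late granulocytes found per library. Its cut was 3.98 per 10000 UMIs, and Trem3, 1 of the 11 genes, alone had 566 of 1115513 UMIs in WT T1 members. Most members thus counted as mature, so this choice cannot check the share by the rule. The immature shares by this choice were 21.5%, 20.7% and 26.6% in WT and 24.2%, 25.3% and 40.9% in E2-KO, so that WT T3 lay above E2-KO T1 and T2 and the groups overlapped.

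**Figure D2:**
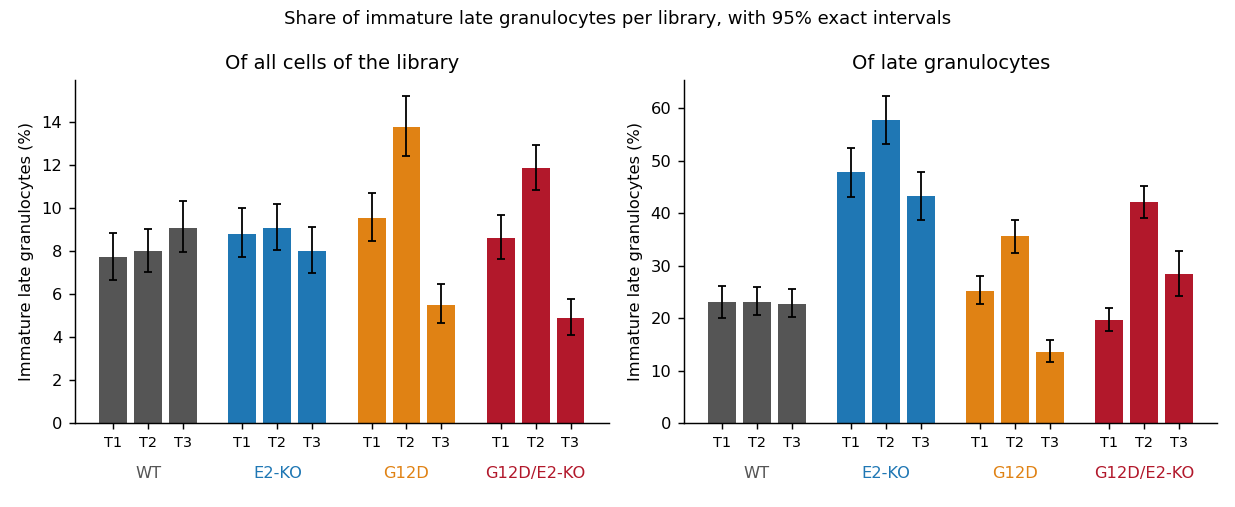
Percent of all cells (left) and of late granulocytes (right) that were immature, with 1 bar per library (T1, T2 and T3 within each genotype) and exact 95% binomial intervals, which cover counting error only. On the right, E2-KO stands at 43.2% to 57.8% and WT at 22.8% to 23.1%.

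The members of the 4 genotypes were spread differently over the range. The median late-gene sum per 10000 UMIs was 3241, 3477 and 3950 in WT at T1, T2 and T3. It was 3020, 2630 and 2496 in E2-KO, 3118, 3510 and 2827 in G12D, and 2602, 2703 and 1707 in G12D/E2-KO. Every library with deleted Ezh2 thus had a lower median than every WT library. Members with a late-gene sum above 2500 were 75.1% ± 5.99 of the WT members and 67.3% ± 8.42 of the G12D members (SD, n = 3), against 54.6% ± 5.90 of the E2-KO members and 41.9% ± 21.5 of those of the double mutant. Members without a single UMI of Retnlg, Ifitm6 and Ly6g were 19.3%, 12.3% and 8.76% in WT and 37.2%, 50.2% and 44.4% in E2-KO. They were 10.7%, 26.2% and 15% in G12D and 20.2%, 46.1% and 32.0% in G12D/E2-KO, and E2-KO overlapped with neither WT nor G12D. These are the rule's own genes and shares of cells that depend on depth, so no test was run. Because the position on this range differed between genotypes, the genes named in the comparisons of genotypes below were also fitted in members below and at or above a late-gene sum of 2000. The differences between immature and mature cells were not fitted in these ranges. Below 2000, 32 gene results kept direction and side of the threshold, 29 no longer passed and 1 reversed. At or above it, 50 kept both and 16 no longer passed.

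Ezh2 itself was checked first. Its level in the members was 74.4, 66.3 and 83.0 CPM in WT and 70.6, 55.9 and 60.5 in G12D. It was 20.6, 17.0 and 21.2 CPM in E2-KO and 19.1, 12.2 and 25.7 in G12D/E2-KO. All 6 libraries with Ezh2 f/f and Mx1-Cre were thus lower than the 6 others. The change was −1.99 ± 0.21 (log2, SE) in E2-KO (edgeR quasi-likelihood test, adjusted p = 1.7e-06) and −2.19 ± 0.21 in G12D/E2-KO (adjusted p = 1.7e-07), and −0.26 in G12D, which did not pass. Which exons the deletion removes is not given in the sources used here, and 3' tags need not lie in the deleted part.

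In E2-KO members, 71 of 7973 genes passed the edgeR test, which is 0.891% of the genes tested (55 or 0.69% higher and 16 or 0.201% lower than WT, 1029 at an unadjusted p under 0.05). Of 8 tested primary granule genes 3 were higher (Prtn3, Mpo and Srgn) and none lower, with a median log2 change of 0.76 over the list and 0.00 over all genes. In members with a late-gene sum of at least 2000 only Srgn of these 3 passed. Of 12 genes of the secondary granule list none passed (median −0.29), nor did any of 6 NADPH oxidase genes (median −0.12), which build the oxidase of phagocytes. Of 11 mature neutrophil genes 1 was lower and none higher.

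Prtn3, which encodes proteinase 3, was at 1589, 2360 and 1329 CPM in WT members and at 4202, 4582 and 3090 in E2-KO. Each E2-KO library was above every WT library, and the rise was 1.12 ± 0.20 (log2, SE; adjusted p = 0.0039 by edgeR). Mpo was at 532, 799 and 634 CPM in WT and at 1387, 1613 and 1329 in E2-KO. It rose by 1.08 ± 0.22 (adjusted p = 0.019 by edgeR), again with no overlap of the libraries, but the call was lost without WT T1, WT T3 or any 1 of the 3 E2-KO libraries (adjusted p = 0.058 to 0.25). Srgn, serglycin, the proteoglycan that packs proteases into granules, went from 305, 421 and 251 CPM to 742, 712 and 750. It rose by 1.13 ± 0.17 (adjusted p = 0.00035 by edgeR) and passed in all 12 fits that each left out 1 library, while Prtn3 was lost without WT T1 (adjusted p = 0.074) and without WT T3 (0.23). Elane, at 2996, 4504 and 2662 CPM in WT and 6187, 7205 and 3540 in E2-KO, changed by 0.66 and did not pass (adjusted p = 0.21). In members with a late-gene sum of at least 2000 the changes were 1.14 for Prtn3 (adjusted p = 0.058), 1.18 for Mpo (0.22) and 1.24 for Srgn (0.020), and below 2000 they were 0.55 (0.72), 0.33 (0.91) and 0.50 (0.44), all by edgeR. The part of the different spread over the range in these changes was not tested.

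**Figure D3:**
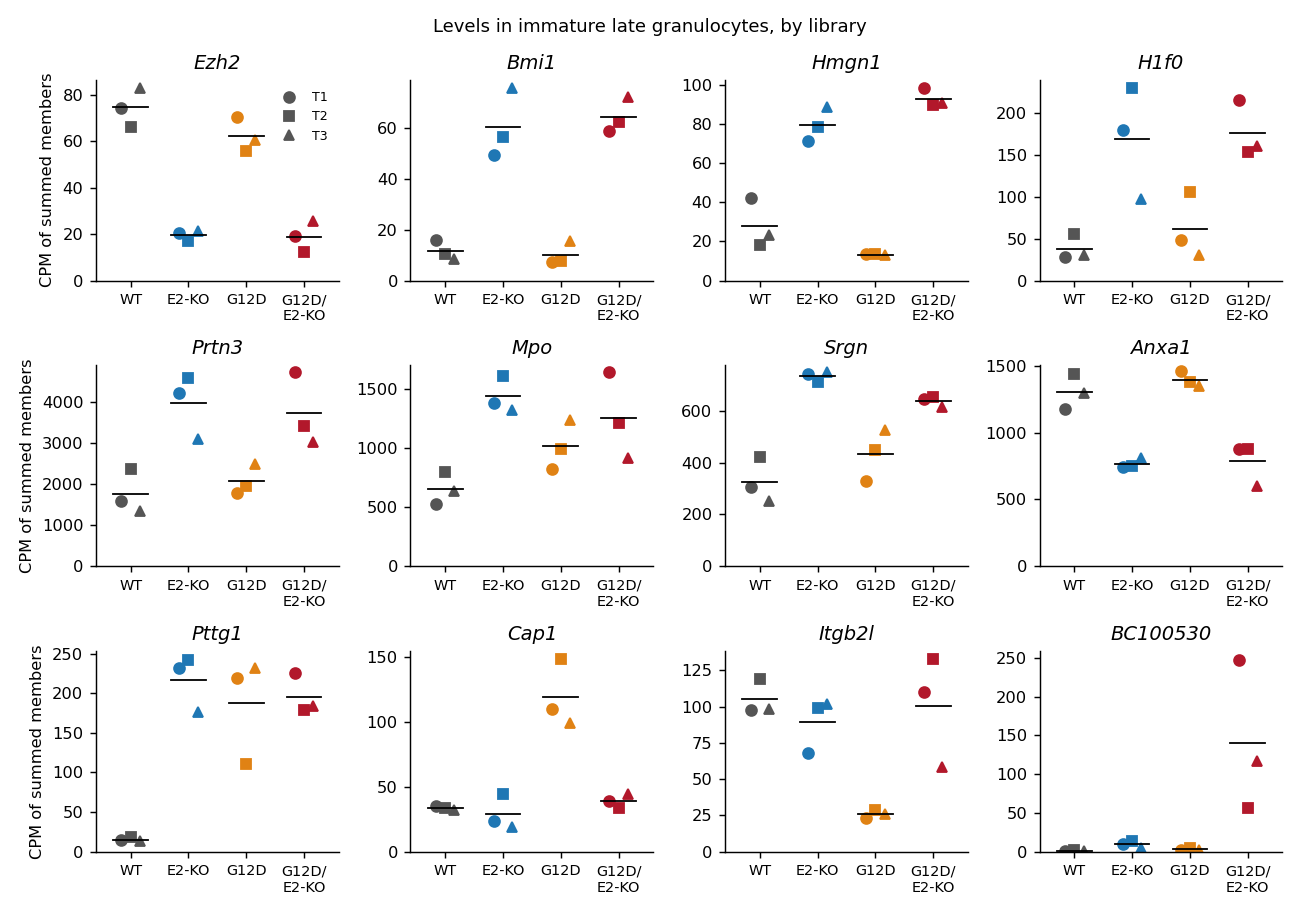
CPM of 12 genes in the summed members of each library (vertical axes, linear, from 0), by genotype, with a marker shape for each time point and a line at the mean of 3 libraries. Ezh2 is low in the 6 libraries with deleted Ezh2, Pttg1 is low in the 3 WT libraries, and BC100530 is high in G12D/E2-KO.

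The genes that fell in E2-KO members included Anxa1, which encodes annexin A1, an inhibitor of neutrophil recruitment. It was at 1176, 1442 and 1298 CPM in WT and 742, 748 and 814 in E2-KO. Its fall was 0.82 on the log2 scale (SE 0.17, adjusted p = 0.0084 by edgeR), and it remained below 2000 (−1.12, adjusted p = 0.024) and at or above it (−0.62, adjusted p = 0.019). Pirb, an inhibitory receptor of myeloid cells, was at 64.5, 96.4 and 99.6 CPM in WT and 44.7, 44.5 and 36.6 in E2-KO, a change of −1.07 ± 0.24 (adjusted p = 0.024 by edgeR). Arf5, a small GTPase of Golgi transport, was at 354, 397 and 347 CPM against 174, 194 and 127, a change of −1.21 ± 0.16 (adjusted p = 7.7e-05 by edgeR). None of these 3 genes had E2-KO libraries that overlapped with WT, but they were named for being called with 1 sign at all 3 time points. That choice favours genes without overlap, so the lack of overlap adds no support. The call of Arf5 held without each library. That of Anxa1 was lost without WT T2, WT T3, E2-KO T1 or E2-KO T2 (adjusted p = 0.069 to 0.12 by edgeR). That of Pirb was lost without WT T2, WT T3, E2-KO T1 or E2-KO T3 (0.058 to 0.26), and without both T1 libraries with shared cells (0.056). Ltf, at 2210, 2497 and 2916 CPM in WT and 1438, 1381 and 1487 in E2-KO, changed by −0.90 ± 0.36 and did not pass (adjusted p = 0.35 by edgeR) although its libraries did not overlap. Ngp, a gene of the rule, was at 42921, 43524 and 48182 CPM in WT and at 30025, 32344 and 19677 in E2-KO.

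The other genes with the largest falls in E2-KO members were Ube2l6, Tspan32, Sept1 and Rinl. Ube2l6, the conjugating enzyme for the ubiquitin-like protein ISG15, was at 32.3, 37.9 and 53.4 CPM in WT and 16.5, 16.4 and 9.44 in E2-KO, a change of −1.56 ± 0.31 (adjusted p = 0.011 by edgeR). Tspan32, a tetraspanin of blood cells, was at 147, 123 and 130 CPM in WT and 58.4, 57.6 and 75.5 in E2-KO, a change of −1.14 ± 0.20 (adjusted p = 0.0017 by edgeR). Sept1, a septin, changed by −0.89 and Rinl by −0.83 (adjusted p = 0.044 and 0.022 by edgeR). No E2-KO library overlapped with WT in any of these 4 genes, which the choice of named genes likewise favours. Of the 12 fits without 1 library, Tspan32 passed in 11, Ube2l6 and Rinl in 8 each and Sept1 in 3. By DESeq2, Sept1 and Rinl did not pass (adjusted p = 0.12 and 0.065).

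Levels were also described within steps of the range. In members with a late-gene sum above 2500, Prtn3 stood at 744 ± 296 CPM in WT (SD, n = 3), 721 ± 55.7 in G12D, 1742 ± 155 in E2-KO and 1536 ± 631 in G12D/E2-KO. In members with a sum of 1000 to 1500 it stood at 5100 ± 2255, 5611 ± 466, 7724 ± 1466 and 6515 ± 2327 CPM in the same order. Ltf above 2500 stood at 3279 ± 286 CPM in WT, 3404 ± 158 in G12D, 2356 ± 215 in E2-KO and 2199 ± 216 in G12D/E2-KO. The SDs of WT and both Ezh2-deleted genotypes left a gap for Ltf above 2500 and, for Prtn3, a gap between WT and E2-KO above 2500 and overlap elsewhere. The steps are cut by the rule's own genes, and no test was run within them. Few cells stood behind some of these values, with 17.2% of the 128 G12D/E2-KO T3 members above 2500.

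**Figure D4:**
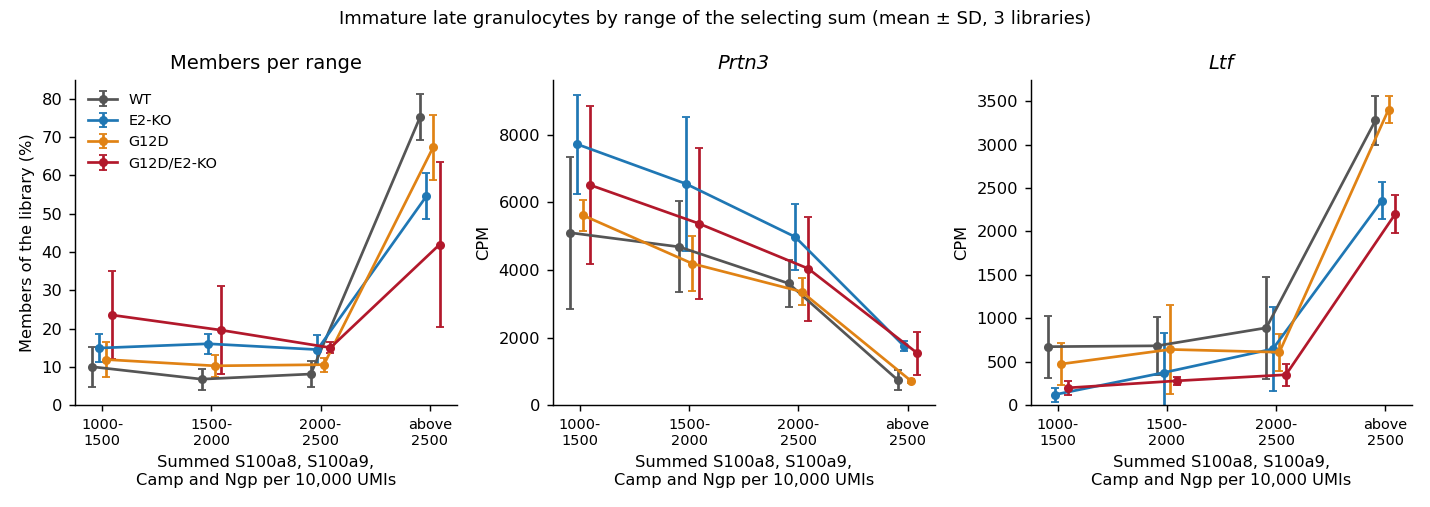
Percent of a library's members in each step of the late-gene sum (left) and CPM of Prtn3 (middle) and Ltf (right) in these steps, by genotype, with points for means and bars for SDs of 3 libraries. Above 2500, E2-KO and G12D/E2-KO have higher Prtn3 means and lower Ltf means than WT and G12D.

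Bmi1, Hmgn1, H1f0 and Mt1 were among the genes higher in both genotypes with deleted Ezh2. Bmi1, a subunit of Polycomb repressive complex 1, was at 16.1, 10.6 and 8.7 CPM in WT, 7.3, 7.8 and 15.4 in G12D, 49.5, 56.3 and 75.5 in E2-KO and 58.7, 62.4 and 72.0 in G12D/E2-KO. It rose by 2.30 ± 0.25 in E2-KO and 2.35 ± 0.25 in G12D/E2-KO (adjusted p = 2.7e-06 and 9.9e-07 by edgeR), and its 6 values in Ezh2-deleted libraries lay above the 6 others. Hmgn1, a nucleosome-binding protein, was at 42.1, 18.4 and 23.1 CPM in WT, 13.6, 13.5 and 12.9 in G12D, 71.5, 78.5 and 88.5 in E2-KO and 98.3, 89.8 and 90.8 in G12D/E2-KO. It rose by 1.51 ± 0.22 and 1.68 ± 0.21 against WT (adjusted p = 0.0002 and 2.2e-05 by edgeR). In G12D the change was −1.0 (adjusted p = 0.22). H1f0, a linker histone of cells that leave the cell cycle, was at 28.7, 55.2 and 31.0 CPM in WT and 180, 230.3 and 97.9 in E2-KO, a rise of 2.05 ± 0.30 (adjusted p = 0.002 by edgeR). It was at 216, 154 and 161 in G12D/E2-KO, also above every WT library. Mt1, metallothionein 1, was at 268, 209 and 210 CPM in WT and 638, 538 and 981 in E2-KO, a rise of 1.59 ± 0.24 (adjusted p = 0.0017 by edgeR) that was lost without WT T3 (adjusted p = 0.096). Of these 4 genes, the E2-KO calls of the other 3 held without each library.

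Of 8 tested PRC2 genes, Ezh2 passed in E2-KO and G12D/E2-KO and the others in none of the comparisons. Suz12, a core subunit, was at 68.1, 40.1 and 59.2 CPM in WT and 69.4, 53.6 and 117 in E2-KO (change 0.43, adjusted p = 0.41 by edgeR). Of 7 tested genes of the list of PRC1 and CDK inhibitors, Bmi1 passed in E2-KO (0.891% of all genes tested did) and in G12D/E2-KO (1.13%), and no other did.

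Pttg1, securin, which inhibits the protease separase until anaphase, was at 14.3, 18.9 and 13 CPM in WT. It was at 232, 242 and 176 in E2-KO, 219.8, 110.2 and 232 in G12D, and 225, 179 and 183 in G12D/E2-KO. All 9 mutant libraries were above all 3 WT libraries and overlapped among themselves. It rose by 3.71 ± 0.26, 3.49 ± 0.26 and 3.49 ± 0.26 (adjusted p = 5.9e-09, 2.3e-08 and 1.1e-08 by edgeR) in the 3 genotypes. WT is the arm without the recombinase. Of 18 mitosis genes none passed in any comparison (medians −0.06 in E2-KO, 0.01 in G12D and −0.10 in the double mutant), and Pttg1 is not on that list. Of 18 S-phase genes 1 passed in G12D/E2-KO, beside 1.13% of all genes tested, which was Uhrf1 (51.1, 58.0 and 49.8 CPM in WT and 78.7, 104 and 123 in G12D/E2-KO, change 0.80, adjusted p = 0.019 by edgeR), a reader of hemimethylated DNA. Uhrf1 did not pass without both T1 libraries with shared cells (adjusted p = 0.075), nor without WT T2, WT T3 or G12D/E2-KO T2 (0.080 to 0.24), nor in either range of the late-gene sum (0.36 below 2000 and 0.0503 at or above it).

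In G12D members, 9 of 7973 genes passed (0.113%, with 8 or 0.1% higher and 1 or 0.0125% lower, and 374 at an unadjusted p under 0.05). Itgb2l, an integrin beta 2-like gene of granulocytes, was at 97.7, 119 and 98.1 CPM in WT and 23.2, 28.5 and 25.7 in G12D. It fell by 2.06 on the log2 scale (SE 0.23, adjusted p = 8.3e-06 by edgeR), and its G12D values lay below those of all the other libraries. In E2-KO it was at 68.0, 98.8 and 101 CPM and in G12D/E2-KO at 110.2, 133 and 58.2. The interaction, the double mutant change minus the sum of both single changes, was 2.24 ± 0.31 (adjusted p = 0.0003 by edgeR). Hmgn1 lies 295 kb away on chromosome 16. Cap1, an actin-binding protein of the cyclase-associated family, was at 35.0, 33.4 and 32.5 CPM in WT, 110.2, 148 and 99.1 in G12D, 24.1, 44.5 and 18.9 in E2-KO and 39.1, 33.5 and 44.5 in G12D/E2-KO. It rose by 1.81 ± 0.21 in G12D (adjusted p = 8.3e-06 by edgeR), and G12D was above all other genotypes. Double mutant members were lower than G12D members by 1.76 on the log2 scale (adjusted p = 6.6e-06 by edgeR).

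None of the 5 tested ERK feedback genes passed in G12D or in any other comparison. Dusp6, a phosphatase of ERK, was at 9.86, 10.6 and 9.38 CPM in WT and 9.61, 8.28 and 3.86 in G12D. Of 15 interferon response genes none passed either, with median changes of 1.63 in G12D and 2.42 in G12D/E2-KO. Their summed level was 335, 314 and 388 CPM in WT, 412, 216 and 1305 in G12D, and 1286, 695 and 219 in G12D/E2-KO. The high values thus came from G12D T3 and from T1 and T2 of G12D/E2-KO, and the lowest G12D/E2-KO value from T3.

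In double mutant members, 90 genes passed against WT (1.13%, with 63 or 0.79% higher and 27 or 0.339% lower) and 120 against G12D (1.51%, with 75 or 0.941% higher and 45 or 0.564% lower). Without G12D/E2-KO T3 they were 165 and 149, of which 75 and 84 were called in both fits. Of 71 named double mutant gene results, interaction and states included, 61 kept direction and call in that fit and 10 no longer passed. Xist is among the genes called lower. The stefin A cluster, of the cystatin family, is described by its UMIs. Its members are small inhibitors of cathepsin proteases, encoded by related copies between which the counting could split reads, so the count per copy is uncertain. All 9 genes of the list with coordinates lie on chromosome 16 between 36119946 and 36455392 (mm10). To show how alike the copies are, the promoters of 4 of them are given (RefSeq, GRCm38.p6, 250 bases before to 50 after the start), 5′ to 3′ on the gene's strand, with capitals for the motif TTNCNNAA or its reverse complement TTNNGNAA, a C/EBP-type half-palindrome searched on both strands. They are Stfa2l1 at chr16:36156561-36156860 on the plus strand, Stfa1 at chr16:36276898-36277197 on the plus strand, Stfa2 at chr16:36408314-36408613 on the minus strand and Stfa3 at chr16:36455343-36455642 on the minus strand.
Stfa2l1: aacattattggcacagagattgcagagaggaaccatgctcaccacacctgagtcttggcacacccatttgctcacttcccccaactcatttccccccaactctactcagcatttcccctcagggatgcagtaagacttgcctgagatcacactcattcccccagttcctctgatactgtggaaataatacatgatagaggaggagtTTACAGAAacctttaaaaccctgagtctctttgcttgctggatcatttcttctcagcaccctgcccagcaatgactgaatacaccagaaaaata
Stfa1: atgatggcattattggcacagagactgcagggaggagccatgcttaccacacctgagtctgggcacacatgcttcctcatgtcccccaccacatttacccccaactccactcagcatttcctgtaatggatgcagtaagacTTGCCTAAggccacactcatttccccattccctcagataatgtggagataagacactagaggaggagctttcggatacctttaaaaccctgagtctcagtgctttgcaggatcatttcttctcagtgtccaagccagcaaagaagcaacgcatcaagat
Stfa2: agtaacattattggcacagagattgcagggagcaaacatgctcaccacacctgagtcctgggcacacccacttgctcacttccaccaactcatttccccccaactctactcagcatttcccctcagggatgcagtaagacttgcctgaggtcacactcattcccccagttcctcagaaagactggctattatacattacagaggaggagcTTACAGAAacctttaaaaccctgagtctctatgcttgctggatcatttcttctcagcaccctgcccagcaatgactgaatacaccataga
Stfa3: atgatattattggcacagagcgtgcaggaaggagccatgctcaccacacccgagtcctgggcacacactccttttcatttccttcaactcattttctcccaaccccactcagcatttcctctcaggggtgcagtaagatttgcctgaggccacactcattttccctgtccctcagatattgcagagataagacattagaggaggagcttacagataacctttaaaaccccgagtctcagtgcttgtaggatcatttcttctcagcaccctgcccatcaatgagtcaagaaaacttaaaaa
Pairwise identity of these promoters ran from 79.3% to 90.5%. The motif was found at −44 in Stfa2l1, −109 in Stfa1 and −40 in Stfa2 from the start, and these letters are not in the Stfa3 window. It occurs in 40.7% of all 32851 promoters in the table, in 3 of 5 stefin A cluster genes with a promoter in the table (Csta1, not shown, has none), in 8 of 11 genes of the secondary granule list and in 2 of 8 of the primary granule list. Promoters of BC100530 and Gm5483 were not used here.

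BC100530 had 1, 3 and 1 UMIs in the WT members at T1, T2 and T3, 15, 21 and 4 in E2-KO, 5, 10 and 2 in G12D, and 517, 110 and 68 in G12D/E2-KO. Every double mutant library held more UMIs than every other library. Per UMI of the members, G12D/E2-KO had 128 times the WT level (exact counting interval 54.7 to 397) and 39.4 times that of G12D (24.4 to 68.0). Against E2-KO the ratio was smaller, at 14.3 (10.4 to 20.2). Of the 695 double mutant UMIs, 517 came from T1. Without that library, an alternative chosen after the data were seen, the ratios to WT and G12D were 59.8 (25.2 to 187) and 18.4 (11.1 to 32.2). The ratio to E2-KO was then 6.67 (4.71 to 9.65). These intervals cover counting error only and not the spread between libraries. Gm5483 had 1, 0 and 0 UMIs in WT, 0, 0 and 0 in E2-KO, 1, 0 and 0 in G12D and 58, 20 and 3 in G12D/E2-KO, a counting ratio to WT of 74.8 (13 to 2990). Stfa3 had 0, 3 and 0 UMIs in WT, 4, 4 and 1 in E2-KO, 1, 3 and 1 in G12D and 25, 21 and 2 in G12D/E2-KO, a counting ratio to WT of 14.8 (4.76 to 74.1). Its ratio to E2-KO was 4.39 (2.13 to 10.2). Without G12D/E2-KO T1 the ratio to WT was 38.7 (6.28 to 1592) for Gm5483 and 12.9 (3.89 to 67.0) for Stfa3. Gm5483 and Stfa3 entered the edgeR test only with the G12D/E2-KO libraries, in which they are high, so their values are given as a description. BC100530 rose by 6.50 ± 0.63 (log2, SE) against WT and 4.98 ± 0.52 against G12D (adjusted p = 0.00028 and 0.00051 by edgeR). Both calls held in all 12 fits without 1 library, and each no longer passed in 1 other alternative. Its WT level rests on 5 UMIs. Stfa1 had 9, 30 and 21 UMIs in WT and 342, 85 and 113 in G12D/E2-KO, with a counting ratio of 8.31 (6.36 to 11), or 5.55 (4.14 to 7.53) without G12D/E2-KO T1, and did not pass (change 3.01, adjusted p = 0.15).

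BC100530 was detected in a small part of the double mutant members. A cell without a UMI may still carry the transcript, and such shares are not given here for the other stefin A genes. After thinning every cell to 1400 UMIs, a BC100530 UMI was seen in 7.63%, 2.68% and 10.2% of G12D/E2-KO members (13.7%, 6.04% and 13.3% at full depth). In G12D/E2-KO cells rich in haemoglobin, which should lack it, the thinned share was 0.435%, 0.0% and 0.909%, with median depths of 4356, 3068 and 2938 UMIs against 7521, 4235 and 4535 in the members. The share in the members was thus above that of the haemoglobin-rich cells in each double mutant library. Among WT members it was 0.0%, 0.441% and 0.0%. In mature late granulocytes of G12D/E2-KO BC100530 was at 284, 90.9 and 743 CPM, and in members with a mature-gene sum of 0 it was at 17.7 against 181 above 0, both means of 3 libraries.

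Prtn3 and Srgn also rose in double mutant members against WT, by 0.97 ± 0.20 and 0.86 ± 0.17 (adjusted p = 0.014 and 0.0074), and Mpo changed by 0.83 and did not pass (adjusted p = 0.078), all by edgeR. Prtn3 was at 4711, 3401 and 3019 CPM and Srgn at 644, 654 and 615 in G12D/E2-KO. Without both T1 libraries neither passed (adjusted p = 0.11 and 0.071). Prtn3 was also lost without WT T1, WT T3 or G12D/E2-KO T1 (0.083 to 0.33), and Srgn without WT T3 or G12D/E2-KO T1 (0.12 and 0.062). Neither passed within the range, with changes of 0.98 and 0.90 at or above a late-gene sum of 2000 (adjusted p = 0.074 each) and of 0.29 and 0.13 below it (0.89 and 0.92). Anxa1 was at 878, 879 and 600 CPM in G12D/E2-KO and at 1463, 1381 and 1351 in G12D. It fell by 0.86 against WT and by 0.93 against G12D (adjusted p = 0.0061 and 0.0025 by edgeR), and no double mutant library overlapped with WT or G12D. The first call was lost without WT T2 or WT T3 (0.078 and 0.060) and the second without G12D T1 (0.074). At or above a sum of 2000 both passed (−0.65 and −0.73, adjusted p = 0.010 and 0.0036) and below it neither did (−0.57 and −0.85, adjusted p = 0.40 and 0.12). Lcn2 was lower in G12D/E2-KO (change −0.64, adjusted p = 0.043), a call held in 2 of the 12 fits that each left out 1 library and not in that without G12D/E2-KO T3 (adjusted p = 0.061) or without both T1 libraries (0.089). Both E2-KO and G12D/E2-KO were compared with the same WT libraries.

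Several less well known genes rose with Ezh2 deletion in both genotypes. Scd2, a fatty acid desaturase, was at 19.7, 17.8 and 13.7 CPM in WT and 50.1, 51.7 and 87.4 in G12D/E2-KO, a rise of 1.69 ± 0.25 (adjusted p = 0.00024 by edgeR), and it rose by 1.24 ± 0.26 in E2-KO (adjusted p = 0.011), a call lost without WT T3 or E2-KO T3 (0.33 and 0.13). Serpine2, a serine protease inhibitor, was at 17.9, 19.5 and 20.2 CPM in WT and 42.9, 42.6 and 82.2 in G12D/E2-KO, a rise of 1.30 ± 0.24 (adjusted p = 0.0032 by edgeR). Chchd7, a mitochondrial protein, was at 32.8, 32.6 and 36.0 CPM in G12D and 93.0, 101 and 105 in G12D/E2-KO, a rise of 1.45 ± 0.18 (adjusted p = 1.2e-05 by edgeR). In all 3 genes the G12D/E2-KO libraries lay above those of WT and G12D, which the choice of named genes likewise favours. Against WT, Scd2 did not pass below a late-gene sum of 2000 (0.85, adjusted p = 0.31), nor did Hmgn1 (1.08, 0.069), and Serpine2 did not pass at or above it (0.96, 0.052).

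Other genes with large changes in double mutant members follow, with the number of fits without 1 library in which they passed. Against WT, Wdfy1 changed by 1.46, Zmpste24, the protease that matures lamin A, by −1.14, Aldh3b1, an aldehyde dehydrogenase, by −0.85, Cep19 by −0.83 and Rinl by −0.81 (adjusted p = 0.022, 0.014, 0.028, 0.028 and 0.021 by edgeR). They passed in 7, 9, 5, 6 and 8 of the 12 fits without 1 library. Against G12D, Sepw1, a selenoprotein, changed by 1.31, Ube2l6 by −1.08, Mrgpra2b by −0.98 and Zmpste24 by −0.95 (adjusted p = 0.030, 0.044, 0.0068 and 0.047 by edgeR), passing in 9, 4, 10 and 4 of these fits. By DESeq2, Ube2l6 and Zmpste24 did not pass against G12D (adjusted p = 0.079 each). For G12D/E2-KO against WT, DESeq2 gave no adjusted p-value for BC100530, Bmi1, Scd2, Wdfy1, Serpine2 and Car1, so these calls were not checked by it. Tpm3-rs7, a copy related to the tropomyosin gene Tpm3 with which it may share reads, was at 182, 293 and 109 CPM in G12D and 21.5, 15.2 and 13.7 in G12D/E2-KO, a change of −3.69 ± 0.55 (adjusted p = 0.031 by edgeR, 7 of 12 fits). It was at 18.8, 16.2 and 18.0 CPM in WT and at 119, 125 and 11.8 in E2-KO, where T3 stood apart from T1 and T2.

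The interaction was called for 4 genes (0.0502%), which were Itgb2l, Xist, Gdpd3 and Pttg1 (−3.71 ± 0.33, adjusted p = 4.4e-07 by edgeR). WT, the only arm without the recombinase, is part of this contrast. An effect common to the 3 mutants, such as that of the recombinase, therefore enters it once with a minus sign. For Pttg1, which rose by 3.71, 3.49 and 3.49 in the mutants, and for Gdpd3 this cannot be told apart from an interaction of the mutations. Gdpd3, a lysophospholipase D gene, was at 3.59, 8.36 and 10.1 CPM in WT, 20.6, 33.4 and 37.7 in E2-KO, 42.4, 35.7 and 43.8 in G12D, and 32.9, 26.9 and 30.8 in G12D/E2-KO. Each mutant was above WT and the interaction was −2.40 ± 0.40 (adjusted p = 0.0041 by edgeR). The interaction of Hmgn1 was 1.18 and did not pass (adjusted p = 0.52). None of the 8 primary granule genes passed the interaction test, and their median was −0.53.

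The last comparison asked whether the genotype change differed between immature and mature late granulocytes of the same libraries. In E2-KO, 39 of 8338 genes passed (0.468%, with 21 or 0.252% higher and 18 or 0.216% lower in the immature change). In G12D/E2-KO 68 passed (0.816%, with 28 or 0.336% higher and 40 or 0.48% lower), and in G12D 1 (0.012%). Cdk6, the G1 cyclin-dependent kinase, was at 113 ± 41.1 CPM (SD, n = 3) in WT members, 108 ± 20.8 in E2-KO and 135 ± 12.2 in G12D/E2-KO, and at 43.1 ± 10.5, 17.8 ± 6.67 and 25.2 ± 0.526 in mature cells. The change in immature cells exceeded that in mature cells by 1.24 ± 0.23 in E2-KO (adjusted p = 0.0002 by edgeR) and 1.08 ± 0.16 in G12D/E2-KO (adjusted p = 3.6e-07), with immature levels near those of WT and lower mature levels. Anxa1 went the other way. Its level in mature cells was 2221 ± 130 CPM in WT and 2204 ± 208 in E2-KO, and the immature change was lower by 0.75 ± 0.078 (adjusted p = 8.5e-13 by edgeR).

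Ltf in mature cells was at 4823 ± 478 CPM in WT, 5367 ± 119 in E2-KO and 4347 ± 1230 in G12D/E2-KO. The immature change of Ltf was lower than the mature change by 0.98 ± 0.14 in E2-KO (adjusted p = 0.023 by edgeR) and by 1.11 ± 0.14 in G12D/E2-KO (adjusted p = 0.011). With the G12D T1 cells as deposited neither passed (adjusted p = 0.17 and 0.090), nor did either with mature-gene limits of 5 or 20 or without the library block. The E2-KO call was also lost without WT T1, E2-KO T2, E2-KO T3, G12D T3 or G12D/E2-KO T1 (0.069 to 0.19), and that of G12D/E2-KO without G12D T3 or G12D/E2-KO T1 (0.064 and 0.20). Vcam1, an adhesion molecule, was called in all 3 genotypes, with 1.41 ± 0.19 in G12D, 1.21 ± 0.24 in the double mutant and 1.04 ± 0.27 in E2-KO (adjusted p = 7.2e-08, 7.0e-04 and 0.038 by edgeR). It was at 51.9 CPM in WT members and 102 in G12D members, and at 30.1 and 21.6 CPM in the mature cells. The call was lost in E2-KO without WT T1, E2-KO T1 or E2-KO T2 (0.13 to 0.58) and in G12D/E2-KO without WT T1 (0.060). In G12D it passed in all 12 fits without 1 library, but not without the library block (1.47, adjusted p = 1.0) or with mature-gene limits of 5 (0.97, 0.10) or 20 (1.40, 1.0).

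Vcam1 is on the list of macrophage genes, of which 4 were tested and the 3 others did not pass. In G12D the differences were 0.70 for C1qa, 0.23 for C1qb and 1.68 for C1qc, all positive like that of Vcam1, with a median of 1.06 over the 4 genes. In E2-KO they were −0.08, −0.68 and 0.04 in the same order (median −0.02), and in G12D/E2-KO 0.65, −0.33 and 0.10 (median 0.38). C1qa, C1qb and C1qc, subunits of complement C1q, stood between 0 and 21.5 CPM in the members of the 12 libraries. The part of macrophage RNA in the Vcam1 result was not tested.

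Chil1, a chitinase-like protein of the secondary granule list, changed less in mature than in immature cells, where the difference was −0.79 ± 0.15 in E2-KO (adjusted p = 0.00058 by edgeR) and −0.72 ± 0.15 in G12D/E2-KO (adjusted p = 0.0027). It was lost in E2-KO without WT T3 or E2-KO T2 (0.060 and 0.20), and in G12D/E2-KO without WT T3 or G12D/E2-KO T1 (0.095 and 0.21) or both T1 libraries (0.24). Of 12 tested genes of the secondary granule list, 1 had a higher (Cd63) and 3 a lower immature change (Chil1, Lcn2 and Ltf) in E2-KO, beside 0.252% and 0.216% of all genes tested. Cd63 is on this list although its protein is a membrane marker of primary granules. In G12D/E2-KO there were 1 higher and 4 lower, with Lyz2 added, beside 0.336% and 0.48%. Lcn2 passed in 8 and 5 of the 12 fits without 1 library in the 2 genotypes, Ltf in 7 and 10, Chil1 in 10 and 10, Cd63 in 11 and 10, and Lyz2 in 9.

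**Figure D5:**
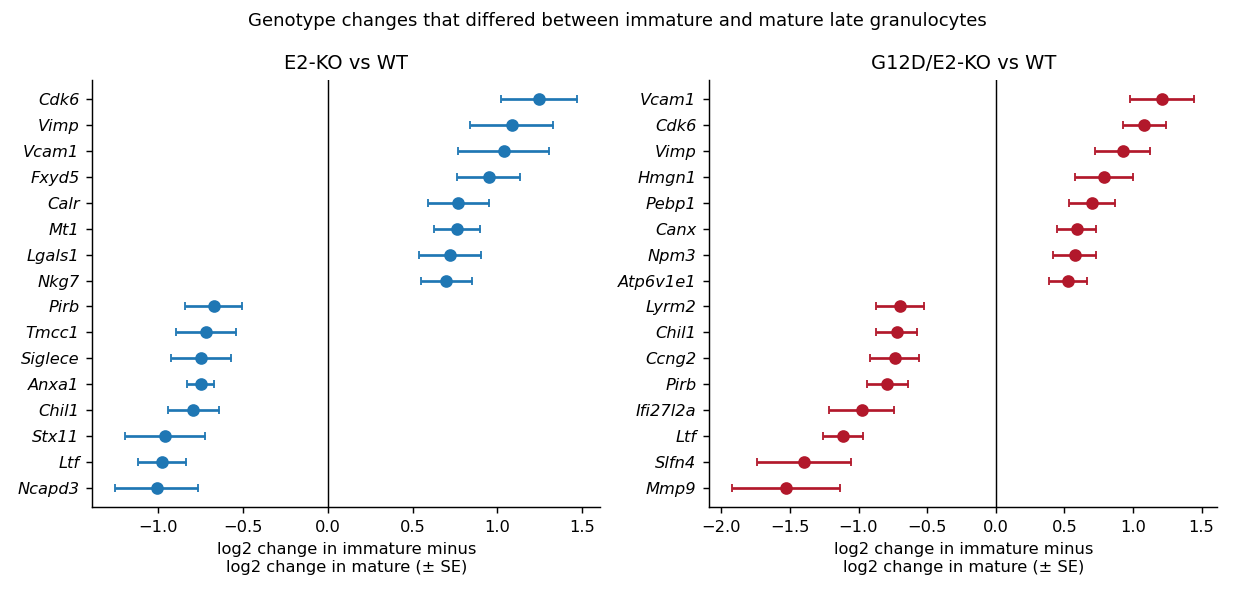
Difference between the log2 change in immature and the log2 change in mature late granulocytes (horizontal axis, points, with SE bars) for the genes named by the rule, in E2-KO (left) and G12D/E2-KO (right) against WT. Cdk6, Vcam1 and Vimp lie to the right of 0, and Ltf, Chil1 and Pirb to the left in both panels.

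Genes of other cell types are given beside these results. Summed erythroid genes stood between 665 and 3783 CPM in the members of the 12 libraries, and 11 members (0.381%) had at least 100 haemoglobin UMIs per 10000. B lymphoid genes summed to 114, 85.3 and 17.3 CPM in WT and 39.1, 32.5 and 8.57 in G12D/E2-KO, and 2 of 6 (Igll1 and Vpreb3) and 1 of 8 erythroid genes (Car1) were lower in G12D/E2-KO, beside 0.339% of all genes tested. These 3 calls were lost without both T1 libraries (adjusted p = 0.13, 0.19 and 0.071 by edgeR). Of 4 macrophage genes none passed there (C1qa −1.72, C1qb −2.48, C1qc −2.23 and Vcam1 −0.12, median −1.98), and their list summed to 104, 60.2 and 76.5 CPM in WT and 32.0, 55.8 and 111 in G12D/E2-KO. Prg2, an eosinophil granule gene, was at 40.5, 6.59 and 3.43 CPM in G12D/E2-KO and 9.04, 1.55 and 1.29 in G12D (change 1.96, adjusted p = 0.033 by edgeR, 7 of 12 fits without 1 library), and did not pass by DESeq2 (0.34). Pf4, platelet factor 4 and the 1 tested gene of 5 on the megakaryocyte list, had 93, 21 and 42 UMIs in WT, 8, 7 and 1 in E2-KO, 3, 7 and 18 in G12D and 10, 22 and 10 in G12D/E2-KO. It did not pass, with changes against WT of −3.15, −2.41 and −1.96 in the 3 mutants (adjusted p = 0.31, 1.0 and 0.41 by edgeR). Of the dendritic list, 3 of 4 genes were tested (Cd74, H2-Aa and H2-Ab1) and none passed between genotypes. All 3 changes were positive in G12D/E2-KO, with a median of 1.43 against WT and 2.60 against G12D, and H2-Aa was called in the G12D/E2-KO difference between states (2.08, adjusted p = 0.030 by edgeR). The list summed to 122, 66.4 and 42.8 CPM in G12D/E2-KO and to 52.0, 25.6 and 15.2 in WT, and it was highest in E2-KO T3 at 127. Between genotypes none of the 4 tested monocyte genes, 4 stem cell genes and 1 basophil and mast gene passed. F13a1 of the monocyte list had 5, 5 and 3 UMIs in WT, 16, 17 and 11 in E2-KO and 19, 12 and 12 in G12D. In G12D/E2-KO it had 14, 15 and 50, the last of 583726 UMIs. The list's Ms4a6c, Ccr2, Ly86, Irf8 and Csf1r had 1, 1, 0, 7 and 0 UMIs in G12D/E2-KO T3. Cd3e was at 0 in all 12 libraries. The part of such RNA in the gene results above was not tested.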

How the data were processed

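Single-cell libraries (10x Genomics 3' chemistry) of c-Kit+ bone marrow cells were used (1 library for each of 4 genotypes at 3 time points). The values are deposited UMI counts. Per the labels and the study's methods, the authors used Cell Ranger and mm10, removed cells with more than 10.0% mitochondrial UMIs and cells called doublets by Scrublet, and gave whole UMI counts per gene and cell. No further doublet caller was run. No column of the tables was left without a sample (0 unused columns).

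Cells of 2 libraries were compared by the cosine over the genes ranked 301 to 8300 by total UMIs, and G12D T1 cells above 0.9 to a G12D/E2-KO T1 cell were left out. Members were chosen as described, and their UMIs were summed per library. Tests on these sums used the quasi-likelihood functions of edgeR 4.0.16 in R 4.3.3 (two-sided, robust, TMM, filterByExpr, limma 3.58.1). The model held genotype plus time point and left 6 residual degrees of freedom over all 12 libraries. P-values were adjusted by Benjamini-Hochberg within a contrast (threshold 0.05), and the 7 genes of the rule were left out of all counts. The difference between states was fitted on immature and mature sums with the library as a block. The p-values measure the spread of single libraries that remains after genotype and time point are fitted. With 1 library per genotype and time point, differences between animals, between libraries and in a genotype's course over time cannot be told apart in this spread. Shares were tested by exact two-sided sign flips over same-time pairs. The members, lists and tests were chosen with earlier results of these data known. Genes named are the 8 with the largest rise and fall per contrast among those called with 1 sign at all 3 time points and a mean log2 CPM of at least 5 (rule genes, sex-linked genes and predicted genes excluded), and list genes that were called. This choice favours genes whose libraries do not overlap between genotypes, and the share of such genes among all genes tested was not counted. Gdpd3 and the genes named with values that did not pass were added for the lists or after their values were seen. Coordinates are from the GENCODE annotation of mm10.

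Fits were tested on simulated counts with known changes before use. Alternatives were DESeq2 1.42.0, no filter, no time block, 2 genotypes alone, cells as deposited, other limits of the rule, thinning, and leaving out each library. Cells were selected and figures drawn with matplotlib 3.10.9, pandas 2.3.3, scipy 1.17.1 and numpy 2.4.6 under Python 3.11.15.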

Additional observations from a re-analysis of the deposited data

Results flagged for a closer look

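The genes below are flagged because a test of the difference itself passed in edgeR, either between the double mutant change and the sum of both single changes or between the genotype change in immature and in mature late granulocytes. No explanation was tested for any of them.

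For the interaction the values are 2.24 (log2) for Itgb2l, −3.71 for Pttg1 and −2.40 for Gdpd3. Pttg1 and Gdpd3 were higher in every mutant genotype than in WT. An effect shared by the mutants, such as that of the recombinase, cannot be told apart from an interaction for these genes.

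The difference between the immature and the mature change in E2-KO was positive for Cdk6 (1.24), Vimp (1.08), Vcam1 (1.04), Fxyd5 (0.95), Calr (0.77), Mt1 (0.76), Lgals1 (0.72), Nkg7 (0.70), Cd63 (0.47) and Ms4a3 (0.46). Lgals1 passed in only 3 of the 12 fits without 1 library, and the others in 9 to 12. Calr encodes the endoplasmic reticulum chaperone calreticulin, Ms4a3 a membrane protein of granulocyte progenitors, and Nkg7 a granule membrane protein that is on the list of T and NK cell genes. Nkg7 was at 286 to 622 CPM in the members of the 12 libraries. The E2-KO difference was negative for Ncapd3 (−1.01), Ltf (−0.98), Stx11 (−0.96), Chil1 (−0.79), Anxa1 (−0.75), Siglece (−0.75), Tmcc1 (−0.72), Pirb (−0.67), Cd177 (−0.43), Cdkn2d (−0.43) and Lcn2 (−0.30). Cdkn2d passed in only 4 of the 12 fits without 1 library, and the others in 7 to 12. Ltf, Chil1 and Lcn2 are secondary granule genes, and Siglece, Pirb and Cd177 are surface proteins of neutrophils.

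In G12D the difference was 1.41 for Vcam1. In G12D/E2-KO it was positive for H2-Aa (2.08), Vcam1 (1.21), Cdk6 (1.08), Vimp (0.92), Hmgn1 (0.79), Pebp1 (0.70), Canx (0.59), Npm3 (0.57), Nkg7 (0.54), Atp6v1e1 (0.53) and Cd63 (0.48). Npm3 passed in only 3 and Hmgn1 in 6 of the 12 fits without 1 library, and the others in 7 to 12. The G12D/E2-KO difference was negative for Ccl5 (−2.51), Mmp9 (−1.53), Slfn4 (−1.40), Car1 (−1.25), Ltf (−1.11), Ifi27l2a (−0.98), Pirb (−0.79), Ccng2 (−0.74), Chil1 (−0.72), Lyrm2 (−0.69), Cd177 (−0.65), Cdkn2d (−0.39), Lyz2 (−0.29) and Lcn2 (−0.26). Cdkn2d and Lcn2 passed in only 5 of the 12 fits without 1 library each, and the others in 7 to 12. Mmp9, gelatinase B, was at 118.7, 99.8 and 124.7 CPM in mature WT cells and at 11.7, 3.9 and 15.9 in WT members. Genes of other cell types are among these. Vcam1 is on the macrophage list, Nkg7 and Ccl5 are on the T and NK cell list, Car1 is on the erythroid list, and H2-Aa is a gene of antigen-presenting cells. Of 25 named G12D/E2-KO results of this kind, 18 no longer passed without both T1 libraries with shared cells.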

How the results depend on the processing

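Of 114 gene results, 17 kept direction and side of the threshold in every alternative run for them. Over 2682 gene alternatives 2097 kept both, 584 no longer passed and 1 reversed, which was Lcn2 in G12D/E2-KO against WT (0.16 in members with a late-gene sum below 2000). Which causes lie behind a moved count was not tested. For E2-KO against WT (71 genes called), the count was 44 by DESeq2, 177 without a filter on low counts, 172 with those 2 genotypes alone, 129 after thinning, 24 below a late-gene sum of 2000 and 182 with a mature-gene limit of 20. For G12D (9), it was 52, 47, 16 at or above 2000 and 20 with the limit of 20 (no filter and 2 genotypes alone first). For G12D/E2-KO against WT (90), it was 58 by DESeq2, 220 without a filter, 155 with a late-gene limit of 500, 18 below 2000, 150 at or above 2000, 56 and 232 with mature-gene limits of 5 and 20, and 47 without both T1 libraries with shared cells. For G12D/E2-KO against G12D (120), it was 42, 235, 184, 21, 72, 214 and 24 (DESeq2, no filter, limit of 500, below 2000, limits of 5 and 20, both T1 libraries out), 219 with those 2 genotypes alone, and 6 with cells as deposited. The interaction (4) gave 18 without a filter and 8 each with the limit of 500, thinning and the limit of 20. The difference between states in E2-KO, G12D and G12D/E2-KO (39, 1 and 68) gave 3, 0 and 17 with the limit of 5 (by edgeR, 379 at an unadjusted p under 0.05 in G12D). It gave 4 in G12D with cells as deposited, and 6 and 23 in G12D and G12D/E2-KO without both T1 libraries.

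Leaving out each library in turn gave 30 (without WT T3) to 101 genes for E2-KO, 4 to 21 for G12D, 33 (WT T3 left out) to 165 (T3 of the double mutant left out) for G12D/E2-KO against WT, 23 (without G12D T1) to 151 against G12D, 4 to 9 for the interaction, and 12 to 52, 1 to 6 and 18 to 82 for the states. Changes of the share of all cells ran from −0.10 to −0.02 for Ezh2 deletion, −0.15 to 0.15 for NRas G12D and −0.37 to −0.16 for the interaction. Those of the share of late granulocytes ran from 0.58 to 0.92, −0.59 to −0.21 and −1.24 to −0.47. With other limits of the rule the first ran from 0.29 to 1.13. None of the share results passed its test, and these directions turned: NRas G12D of all cells to −0.0099 with cells as deposited, −0.096 with a late-gene limit of 1500 and −0.012 with a mature-gene limit of 5, Ezh2 deletion of all cells to 0.12 with the limit of 500 and 0.36 with the limit of 5 (it was −0.47 with the limit of 20, −0.20 with the limit of 1500 and −0.24 after thinning), the interaction of all cells to 0.10 with the limit of 20, and the interaction of late granulocytes to 0.0048 with other mature genes.

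Same-time libraries shared the time point label but deviated together only in part. Over 1563 genes, 18 same-time pairs had a median correlation of deviations from the genotype means of 0.208 (−0.463 to 0.628), and 10 of 18 lay above 0.1. Without the replicate block the counts were 54 in G12D/E2-KO against WT, 49 against G12D, and 0, 0 and 0 for the states in E2-KO, G12D and the double mutant by edgeR (243, 137 and 227 at an unadjusted p under 0.05), where the block is the library. The Ezh2 deletion change of the late granulocyte share (0.71) had an exact permutation p of 0.0346 without the pairing (adjusted p = 0.139).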
